A study of Homo sapiens with 12 samples.

Results

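Ribosome biogenesis in the nucleolus was followed through the mRNAs of 48 genes that encode rRNA processing and ribosome assembly factors. The genes were listed by name, and their reads were summed over all transcripts of each gene. Of the 48, 46 had transcripts that could be matched to a gene in the annotation, out of 34318 genes in all. FBL, the methyltransferase of the box C/D particles, and BOP1, a subunit of the PeBoW complex, had none and are not analysed here. The mRNA came from HEK293T cells, a human line of embryonic kidney origin in wide use for transfection. To deplete POLR3A, cells received an siRNA to it (siPOLR3A), or a control siRNA (siControl), by lipid transfection. POLR3A is the largest subunit of RNA polymerase III, and these cells were collected after 2 days. Other cells received 0.1% DMSO, the vehicle, or 25 µM ML60218, a small-molecule inhibitor of RNA polymerase III, and were collected after 4 hours. Each of the 4 groups held 3 libraries, 12 in all. The 2 experiments differed in agent, transfection and duration, and each had its own control. Nothing in the labels says that the 3 libraries of a group came from separate cultures, so the spread between them may be technical.

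Ribosomes are assembled largely in the nucleolus, where RNA polymerase I makes the long rRNA precursor and RNA polymerase III supplies 5S rRNA. Small nucleolar RNPs guide the chemical marks on the precursor: box C/D particles direct ribose methylation and box H/ACA particles direct pseudouridylation. A large assembly called the small subunit processome forms on the front part of the precursor, and later factors finish the small subunit in the nucleus and cytoplasm. A separate succession of helicases, GTPases and scaffold proteins builds the large subunit, into which RPF2 and RRS1 dock the 5S rRNA with its ribosomal proteins. Many of these genes are known targets of the transcription factor MYC, which binds the E-box CACGTG.

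The libraries held between 37008325 and 49479476 estimated reads, and the 46 assembly factors took between 1.06% and 1.26% of the reads assigned to genes. POLR3A stood between 86.8 and 93.5 CPM (counts relative to library size, scaled between the libraries of an experiment by the trimmed mean of M values) in siControl and between 14.6 and 19.3 CPM in siPOLR3A. Its level was between 108.0 and 118 CPM in DMSO and between 85.1 and 89.0 CPM in ML60218. Of 7 kidney epithelial markers, 6 had a median of at least 1 TPM (the deposited transcript abundance, which takes transcript length into account), and PAX8 was near 0. PTPRC of leukocytes and HBB of erythroid cells were listed at 0 in every library. The summed TPM of 3 erythroid markers was 7.05 to 9.46 in siControl and 19.1 to 21.5 in siPOLR3A, mostly from HBA1, and that of 3 neuronal markers was 165 to 189 and 107 to 110. The sums of the other lists did not overlap between these groups either. They were 39.0 to 43.2 and 44.1 to 47.0 TPM for kidney epithelial markers. For fibroblast markers they were 20.6 to 22.6 and 24.0 to 28.4 TPM, mostly from COL1A1. Leukocyte markers had 0.12 to 0.22 and 0.59 to 0.75 TPM, and endothelial markers 0.12 to 0.13 and 0.04 to 0.11 TPM. In DMSO and ML60218 the neuronal sum was 126 to 134 and 149 to 164 TPM, the sum of the kidney epithelial markers 45.1 to 46.0 and 47.9 to 50.9 TPM, and the erythroid sum overlapped. Whether these differences have a part in the results was not tested. In bulk libraries, fewer cells of a type and less RNA per cell cannot be told apart.

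The assembly factors were all expressed, over a wide range. On the TPM scale, averaged over siControl and DMSO, NPM1 came first with 3755 TPM, or 43.6% of the sum over the 46 genes. NPM1 encodes nucleophosmin, the abundant phosphoprotein of the outer nucleolus. Next came NHP2 (565 TPM) and NOP56 (371 TPM), which encode core proteins of the H/ACA and C/D particles, and then nucleolin, NCL (322 TPM), and the GTP-binding protein GNL3 (314 TPM). UTP20 of the small subunit processome was last with 12.4 TPM. The orders of NCL and WDR12 are uncertain because a large part of their reads lay in transcripts that could not be matched by identifier. Of the reads matched by identifier, a single transcript held over 50% in every library for 43 of the 46 genes, and over 90% for 21 genes. NCL and WDR12 count among the 43 although most of their reads were unmatched.

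Promoter windows of 39 of the 46 genes were found in a RefSeq table (GRCh38.p14, from 250 bases before to 50 after each annotated start). Of these 39, 20 (51.3%) held the E-box CACGTG, whose sequence is the same on both strands. The same 6 bases were in the windows of 12.2% of 11518 protein-coding genes tested and of 8.77% of all 27305 genes in the table. The 20 genes held 23 copies, and 19 of these began between 31 bases before and 43 bases after the start. When the window was limited to the 250 bases before the start, 20.5% of the assembly factors held a copy, against 10.9% of the protein-coding genes tested. Copies close to the start are shown for 6 genes that recur in the comparisons, 5′ to 3′ on the strand of the gene, with the E-box in capitals:
NOP10 (chr15:34343130-34343159, minus strand): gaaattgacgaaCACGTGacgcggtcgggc
GAR1 (chr4:109815781-109815810, plus strand): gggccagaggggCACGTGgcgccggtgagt
MRTO4 (chr1:19251807-19251836, plus strand): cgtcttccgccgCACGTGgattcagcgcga
PNO1 (chr2:68157885-68157914, plus strand): ggtgcagctgcgCACGTGtttcagccggca
NAT10 (chr11:34105602-34105631, plus strand): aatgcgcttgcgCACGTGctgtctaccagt
GNL2 (chr1:37595917-37595946, minus strand): gtacgtcgtgcaCACGTGgtccggcgtggt

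**Figure D1:**
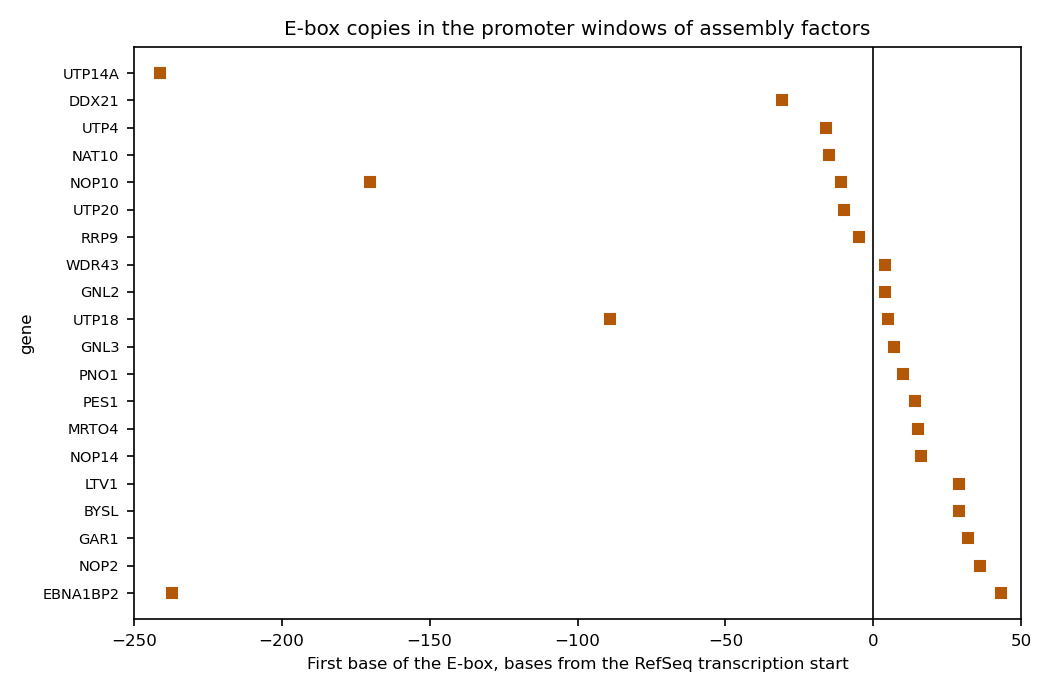
Position of each CACGTG copy in the promoter windows of the 20 assembly factors that held it. The x axis gives the distance in bases of the first base of the copy from the RefSeq start (vertical line), and each row is a gene. Of 23 copies, 19 lie from 31 before to 43 after the start.

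After POLR3A depletion the assembly factors moved in both directions and mostly by little. DDX10, a helicase of the small subunit processome, and GRWD1, a chaperone of a large subunit ribosomal protein, rose more than 2-fold, and DDX18, NIP7, NOP2 and EBNA1BP2 of the large subunit pathway rose by smaller factors. GTPBP4, a nucleolar GTPase of the large subunit, PNO1, a late small subunit factor, and the RNA acetyltransferase NAT10 fell most. In all, 33 of the 46 genes (71.7%) were called at an adjusted p under 0.05, 19 higher and 14 lower, and 35 had an unadjusted p under 0.05. Among all 15404 genes tested, 56.6% were called, 27.4% higher and 29.2% lower. The assembly factors are well expressed, and among 8428 genes with a mean log2 CPM at least as high as the lowest of them, a background chosen after the values were seen, 71.4% were called, 31.5% higher and 39.9% lower. Their share called was thus close to that of the genes above this floor. That background was not matched in level: the floor was a log2 CPM of 4.23, and the median of the assembly factors was 6.84. CPM did not overlap between the groups for 34 of the 46 (73.9%), against 63.4% of all genes tested. The median log2 fold change was 0.03 over the assembly factors and 0.01 over all genes tested, and 29 of the 33 called genes changed by less than 0.5 on the log2 scale. The 13 that were not called had values from -0.10 to 0.09. The split depended on the scaling: 57.6% of the called assembly factors were higher as reported, 73.5% (25 higher, 9 lower) under upper quartile scaling, 72.7% (24 and 9) for total counts, and 67.7% (21 and 10) after a trend with GC content and length was removed.

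**Figure D2:**
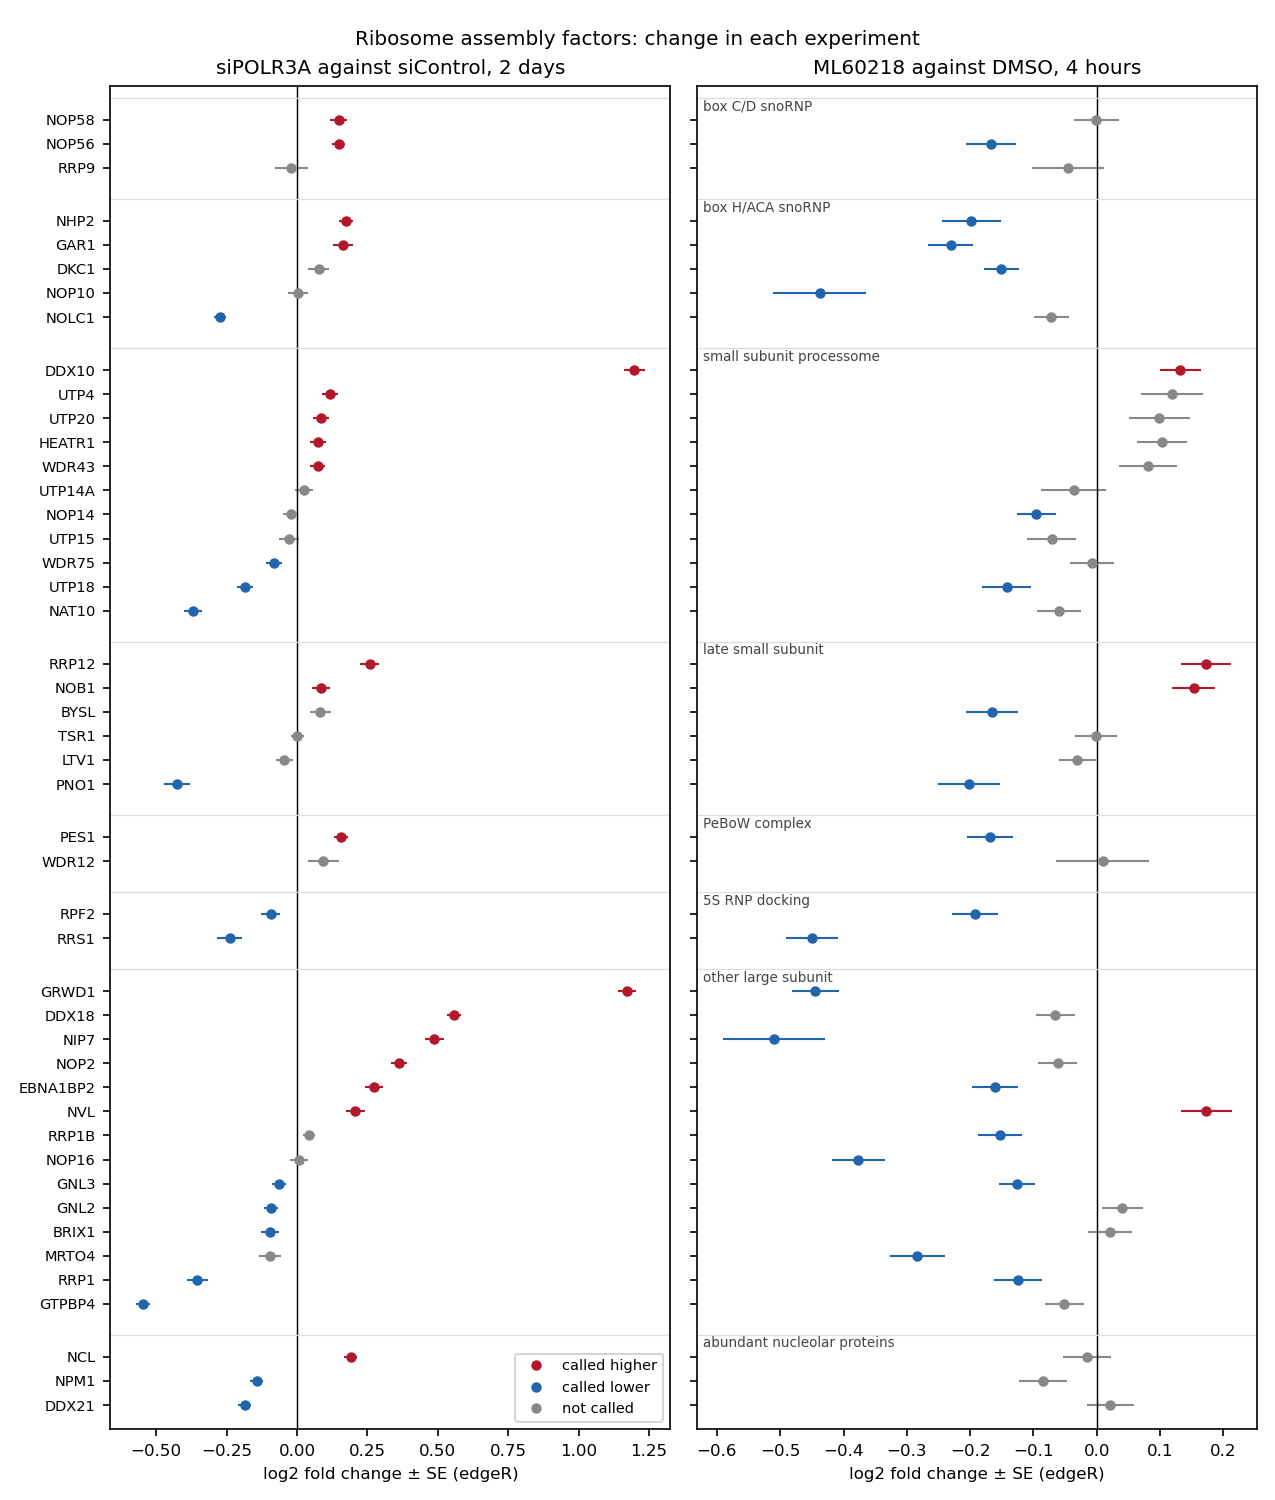
Log2 fold change ± SE of each of the 46 assembly factors after siPOLR3A (left) and ML60218 (right), grouped by role, with red for called higher, blue for called lower and grey for not called. The x scales differ between the panels. DDX10 and GRWD1 stand apart on the left with values of 1.20 and 1.17, and on the right the called genes lie mostly below 0.

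GRWD1 (chromosome 19, 48445773 to 48457022, plus strand, GRCh38, GENCODE 29) gave 33.6, 33.6 and 33.9 CPM in siControl and 74.0, 77.8 and 75.9 CPM in siPOLR3A. The groups were far apart, and within each the libraries differed by little. The log2 fold change was 1.17 (standard error 0.0332, adjusted p = 2.46e-12), a 2.25-fold rise. DDX10 (chromosome 11, 108665025 to 108940930, plus strand) gave 46.9, 45.7 and 49.4 CPM in siControl and 105, 113 and 107 CPM in siPOLR3A, again with no overlap, and a log2 fold change of 1.20 (standard error 0.0369, adjusted p = 5.38e-12). GRWD1 and DDX10 were the only assembly factors called with a change of at least 2-fold, as were 3.82% of all genes tested.

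DDX18, an RNA helicase of early large subunit particles, gave 209, 214 and 217 CPM in siControl and 317, 320.4 and 307 CPM in siPOLR3A, a log2 fold change of 0.56 (standard error 0.0251, adjusted p = 2.51e-10). NIP7, an RNA-binding protein of the large subunit pathway, stood at 59.5, 61.4 and 62.0 CPM and rose to 81.7, 86.6 and 88.3 CPM (log2 fold change 0.49, standard error 0.0346, adjusted p = 3.15e-08). In both genes the lowest siPOLR3A library was well above the highest siControl library. NOP2, which methylates a cytosine of the large subunit rRNA, went from 121, 126 and 128 to 162, 157 and 164 CPM, with a log2 fold change of 0.36 (standard error 0.0295, adjusted p = 1.34e-07). EBNA1BP2, which takes part in the processing of the large subunit rRNA, went from 85.7, 91.5 and 90.9 to 107, 107 and 110.3 CPM, with a log2 fold change of 0.27 (standard error 0.0312, adjusted p = 4.16e-06). The 6 largest rises therefore lay in DDX10 of the small subunit pathway and in 5 genes of the large subunit pathway, and none of their groups overlapped. The exons of NIP7 overlap on the opposite strand with COG8, whose reads amounted to 65.9% of those of NIP7. How strand was used in counting is not given. In all, 10 assembly factors had such overlaps with reads over 10% of their own. Among them were UTP4 (75.1%), BRIX1 (58.9%), NHP2 (22.9%) and GNL3 (14.1%), which are called in a comparison here.

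The levels of the genes that rose most are set beside those of the DMSO libraries. With all 12 libraries on 1 scale, GRWD1 was at 33.5 CPM in siControl, 75.7 in siPOLR3A and 80.8 in DMSO, and DDX10 at 47.0, 108 and 106 CPM. Ranked by siControl over DMSO, GRWD1, DDX10, RRS1, DDX18 and NIP7 were, in this order, the lowest of the 46, with log2 differences of -1.27, -1.18, -1.11, -0.73 and -0.65 against a median of -0.30 over the assembly factors and 0.01 over all genes. In siPOLR3A the differences from DMSO were -0.09 for GRWD1, 0.03 for DDX10, -0.17 for DDX18 and -0.15 for NIP7, while RRS1 stayed low at -1.35. GRWD1, DDX10, DDX18 and NIP7 are among the genes that rose most over these same siControl libraries, so low siControl values are in part fixed by that choice and are no separate support. These are descriptions with no test, also because siControl and DMSO differ in transfection and time as well as in the siRNA, and those cannot be told apart.

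**Figure D3:**
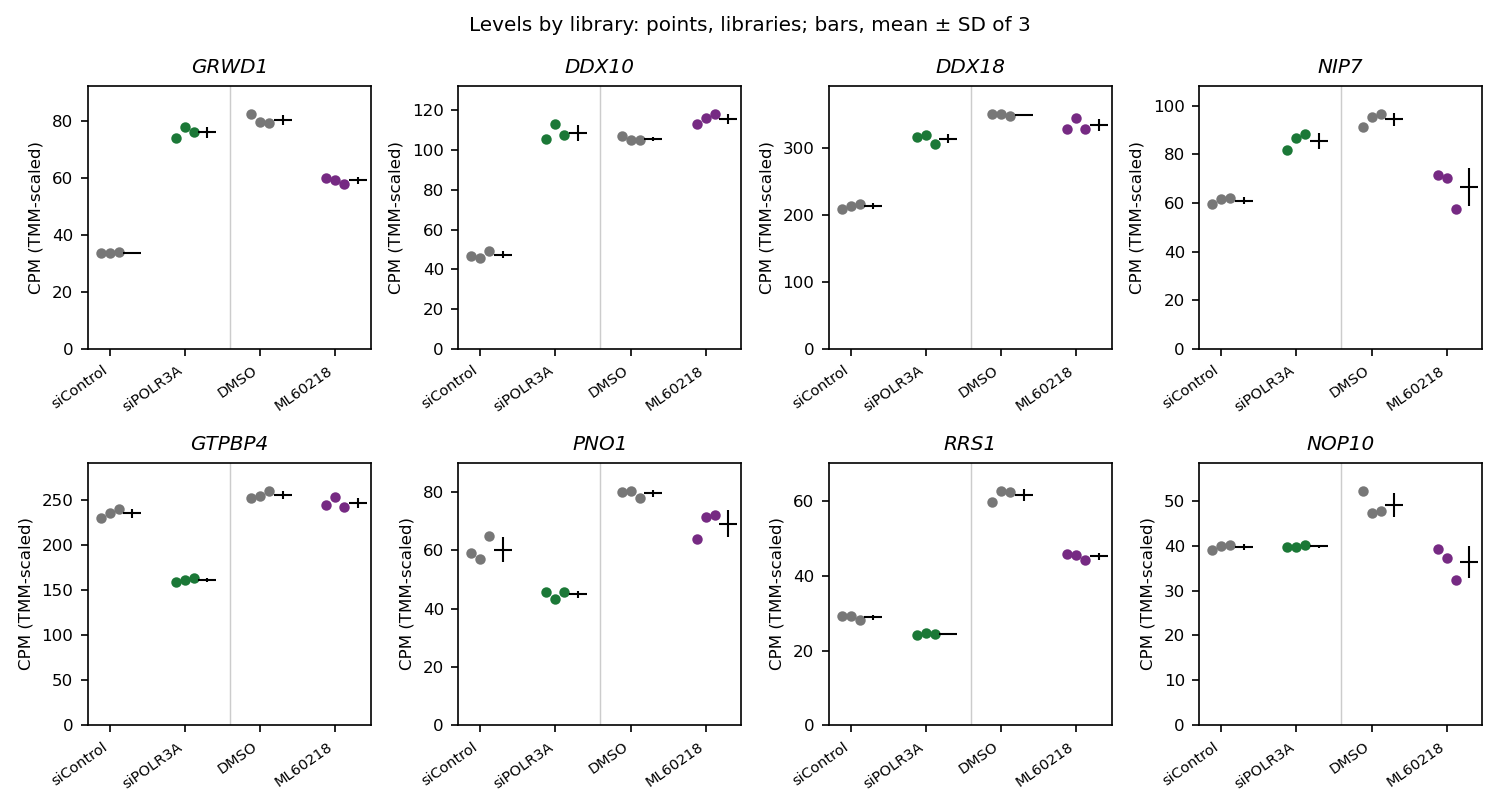
CPM in each library for 8 assembly factors, with points for libraries and bars for the mean ± SD of 3; the vertical line separates the siRNA experiment from the ML60218 experiment, which were scaled separately. For GRWD1, DDX10 and DDX18 the siControl libraries are the lowest of the 4 groups.

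A pair of 6-base strings in 3′ UTRs, GACGTA and GAGGGA, was known from earlier results on these data to go with the siRNA changes, so their counts here are descriptions and no independent support. GACGTA lay in the 3′ UTR of the leading coding transcript of 3 assembly factors, GRWD1, DDX10 and RRS1 (6.52% of 46, against 3.90% of 14190 genes scanned and 11.5% of 235 genes called at least 2-fold higher). The 2 assembly factors that rose at least 2-fold thus both held it, while RRS1 fell. GAGGGA lay in 9 assembly factors (19.6%, against 34.7% of the genes scanned). Of the 14 assembly factors called lower, 7 held it (GTPBP4, PNO1, RRP1, NOLC1, DDX21, RRS1 and RPF2), and of the 19 called higher 1 did (WDR43). Over all genes scanned, GAGGGA lay in 43.1% of those called lower and 30.6% of those called higher, around a share of 34.7%. In the assembly factors it lay in 50% of those called lower and 5.26% of those called higher, around 19.6%. The assembly factors thus had a lower share to begin with, and the counts are small. The median 3′ UTR was 545 bases in the lower assembly factors and 1308 in all genes called lower. MRTO4, which was not called, held 3 copies. The strings were searched on the transcript strand only, and longer UTRs hold more of them: the median 3′ UTR was 1443 bases in assembly factors with GAGGGA and 392 in those without. Whether either string has a part in the changes was not tested. The sites of the largest rises and falls are shown from the GENCODE 29 transcripts with GRCh38 coordinates, all on the plus strand, with the string in capitals:
GRWD1 (chr19:48453145-48453174): tggattctgtttGACGTAttgttctctaga
DDX10 (chr11:108940810-108940839): gctcatgatttcGACGTAtttaatattttc
GTPBP4 (chr10:1017959-1017988): gctgtggggtcgGAGGGAcctgcccagggg
PNO1 (chr2:68175081-68175110): gtaatcctctcaGAGGGAaacttcttgttt

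GTPBP4 (chromosome 10, 988019 to 1019936, plus strand) fell most, from 229.7, 235 and 239.9 CPM in siControl to 158, 161 and 163 CPM in siPOLR3A, a log2 fold change of -0.55 (standard error 0.0251, adjusted p = 3.16e-10). PNO1, which binds the end of the small subunit rRNA together with the nuclease NOB1, went from 59.0, 56.9 and 64.9 to 45.7, 43.4 and 45.6 CPM, with a log2 fold change of -0.43 (standard error 0.0473, adjusted p = 7.61e-06). NAT10, which acetylates cytidines of the small subunit rRNA, went from 139, 149 and 139 to 109.8, 111 and 110.1 CPM, with a log2 fold change of -0.37 (standard error 0.0308, adjusted p = 1.65e-07). In these 3 genes every siPOLR3A library lay below every siControl library. RRP1, a large subunit factor, went from 54.3, 56.4 and 57.4 to 45.3, 44.1 and 42.1 CPM (log2 fold change -0.35, standard error 0.0376, adjusted p = 1.99e-06). NOLC1, a chaperone of small nucleolar RNPs, went from 460.3, 465 and 471 to 379.5, 389 and 386 CPM (log2 fold change -0.27, standard error 0.0217, adjusted p = 1.05e-07). Both falls were larger than the spread of the libraries, with no overlap between groups.

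RRS1 and RPF2, the pair that docks the 5S RNP, were both lower. RRS1 went from 29.3, 29.3 and 28.1 to 24.2, 24.7 and 24.5 CPM, with a log2 fold change of -0.24 (standard error 0.0446, adjusted p = 3.83e-04). RPF2 went from 132, 138 and 146 to 129, 129 and 131 CPM, with a log2 fold change of -0.09 (standard error 0.0338, adjusted p = 0.0307). The RPF2 groups were apart by little, and its call was lost in 8 of the alternatives, among them those that left out siControl replicate 2, siControl replicate 3 or any siPOLR3A library, with an adjusted p of up to 0.402.

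The mRNAs of NPM1 and NCL, which encode multifunctional proteins of the nucleolus, moved apart. NPM1 went from 3205, 3313 and 3378 CPM in siControl to 2962, 3020.1 and 2976 CPM in siPOLR3A, with a log2 fold change of -0.14 (standard error 0.0247, adjusted p = 1.88e-04). NCL, which binds the rRNA precursor and nucleolar chromatin, went from 819, 821 and 843 to 964, 936 and 932 CPM, with a log2 fold change of 0.19 (standard error 0.0227, adjusted p = 6.51e-06). Neither pair of groups overlapped, and both shifts were small. DDX21, a helicase of rRNA transcription and processing, was lower as well (log2 fold change -0.19, adjusted p = 6.58e-06). Only 41.6% of the NCL reads lay in transcripts matched by identifier, but with the neighbouring unmatched transcripts included its log2 fold change was again 0.19 (adjusted p = 2.71e-07). NPM1 has 45 annotated pseudogenes, of which 33 held reads, in all 0.0531% of the NPM1 reads.

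By role, the siRNA calls were spread over all groups, and the values in parentheses are log2 fold changes. The counts by role stand beside 27.4% higher and 29.2% lower over all genes tested. Of 3 box C/D proteins tested, NOP56 and NOP58 were higher (0.15 and 0.15) and RRP9, a protein of the U3 particle, was not called. The H/ACA list held the 4 core proteins and the chaperone NOLC1, 5 genes. Of these NHP2 and GAR1 were higher (0.17 and 0.16) and NOLC1 was lower. NOP10 was not called, nor was the pseudouridine synthase DKC1 (0.08, adjusted p = 0.115). DKC1 stood at 194, 205 and 199 CPM in siControl and 210.5, 199 and 222 CPM in siPOLR3A, overlapping groups. Its call depended on the matching: 77.5% of its reads were matched by identifier, and with the neighbouring transcripts its log2 fold change of 0.08 had an adjusted p of 0.00783.

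Of 11 processome proteins 5 were higher and 3 lower. Besides DDX10 the higher ones were UTP4, UTP20, WDR43 and HEATR1, with log2 fold changes from 0.07 to 0.12, and besides NAT10 the lower ones were UTP18 (-0.19) and WDR75 (-0.08). Of 6 late small subunit factors RRP12 (0.26), which takes part in subunit export, and NOB1 (0.08) were higher and PNO1 was lower. In the large subunit pathway 7 of 18 were higher and 7 lower, although the counts were 9 and 3 under upper quartile or total count scaling. PES1, a scaffold of the PeBoW complex, was higher (0.16), and so was the ATPase NVL (0.21). GNL2, BRIX1 and GNL3 were lower by small amounts (-0.09, -0.10 and -0.06). WDR12, the PeBoW partner of PES1, was not called from its matched transcripts, which held only 17.6% of its reads. With the neighbouring transcripts it was lower at -0.11 (adjusted p = 0.00172).

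After 4 hours of ML60218 most of the called assembly factors were lower. None changed by 2-fold, as 1.32% of all genes tested did. NIP7, RRS1, GRWD1, NOP10, NOP16 and MRTO4 fell most, and all 4 core proteins of the H/ACA particle, NOP10, GAR1, NHP2 and DKC1, were called lower. RRP12, NVL, NOB1 and DDX10 were higher. Of the 46 genes 24 (52.2%) were called, 4 higher and 20 lower, and 28 had an unadjusted p under 0.05. Among all 15461 genes tested, 39% were called, 18.1% higher and 20.9% lower, so that 43.5% of the assembly factors and 20.9% of all genes were called lower. Among 7748 genes at least as highly expressed as the lowest assembly factor, again a background chosen after the values were seen, 52.3% were called, 18.3% higher and 34% lower. CPM did not overlap between the groups for 30 of the 46 (65.2%), against 51.9% of all genes tested. The median log2 fold change was -0.07 over the assembly factors and 0.01 over all genes, but 0.0025 against 0.08 with total counts, so its sign depended on the scaling, while the difference from all genes was -0.07 under either. Of the called assembly factors 16.7% were higher as reported, 29.2% (7 higher, 17 lower) under upper quartile scaling and 40% (8 and 12) for total counts. Without ML60218 replicate 1 the split was 8 higher and 19 lower.

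NIP7 (chromosome 16, 69337996 to 69343111, plus strand) stood at 91.4, 95.4 and 96.6 CPM in DMSO and at 71.4, 70.4 and 57.4 CPM in ML60218, with a log2 fold change of -0.51 (standard error 0.0812, adjusted p = 0.00277). Every ML60218 library lay below every DMSO library, and ML60218 replicate 3 was the lowest. RRS1 went from 60.0, 62.9 and 62.5 to 46.0, 45.6 and 44.2 CPM, with a log2 fold change of -0.45 (standard error 0.0404, adjusted p = 1.26e-04). GRWD1 went from 82.3, 79.5 and 79.2 to 60.1, 59.2 and 57.9 CPM, with a log2 fold change of -0.44 (standard error 0.0369, adjusted p = 1.03e-04). In RRS1 and GRWD1 the libraries of a group were close together and the groups were apart by several times their spread.

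NOP10, a small protein of the H/ACA core, went from 52.3, 47.4 and 47.8 CPM in DMSO to 39.3, 37.3 and 32.3 CPM in ML60218, with a log2 fold change of -0.44 (standard error 0.0733, adjusted p = 0.00197). NOP16, a large subunit factor, went from 70.3, 73.8 and 74.9 to 57.3, 57.3 and 54.2 CPM, with a log2 fold change of -0.38 (standard error 0.0423, adjusted p = 2.65e-04). MRTO4, which holds the place of a stalk protein on the immature large subunit, went from 127, 124 and 121 to 100.5, 108 and 97.1 CPM, with a log2 fold change of -0.28 (standard error 0.0437, adjusted p = 0.00108). None of these groups overlapped. The reads of NOP16 and MRTO4 share exons on the opposite strand with neighbours (ARL10 and HIGD2A for NOP16, EMC1 for MRTO4) whose reads exceeded their own, 302% and 127% of them.

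The other H/ACA core proteins were called lower, by less. DKC1 went from 262, 262 and 260.2 CPM in DMSO to 236, 236 and 234 CPM in ML60218, with a log2 fold change of -0.15 (standard error 0.0276, adjusted p = 0.0024), and GAR1 and NHP2 had log2 fold changes of -0.23 and -0.20. With the neighbouring transcripts the DKC1 log2 fold change was -0.09 (adjusted p = 0.0365), and for total counts it was -0.08 (adjusted p = 0.0495). Mean TPM, not rescaled between libraries, was 122 ± 2.60 in DMSO and 125 ± 5.55 in ML60218 for DKC1, and so was not lower. It was 107 and 102 for GAR1, 625 and 595.5 for NHP2, and 232 and 190 for NOP10. Among the genes called lower, RPF2, RRP1, UTP18 and NOP14 also had a higher mean TPM in ML60218 than in DMSO. NOLC1, their chaperone, was not called (log2 fold change -0.07, adjusted p = 0.0668). That 4 of the 5 genes in the H/ACA list were lower and none higher held in all 9 alternatives that kept every library. RPF2 accompanied RRS1, from 173, 174 and 176 to 154, 158 and 146 CPM (log2 fold change -0.19, standard error 0.0362, adjusted p = 0.00279), without overlap, but its call was lost with an offset for isoform length (adjusted p = 0.145).

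The 4 higher genes changed by little. RRP12 stood at 72.2, 70.8 and 70.3 CPM in DMSO and 76.4, 81.8 and 82.2 CPM in ML60218 (log2 fold change 0.17, standard error 0.0400, adjusted p = 0.00748), and NVL, which releases factors from large subunit precursors, at 93.6, 96.7 and 93.2 and 102, 106 and 111 CPM (log2 fold change 0.17, standard error 0.0399, adjusted p = 0.00738). NOB1, the nuclease that makes the final cut of the small subunit rRNA, stood at 71.7, 72.3 and 72.1 and 78.5, 81.0 and 80.8 CPM (log2 fold change 0.15, standard error 0.0342, adjusted p = 0.00641), and DDX10 at 107, 105 and 105 and 113, 116 and 118 CPM (log2 fold change 0.13, standard error 0.0328, adjusted p = 0.0105). Their groups did not overlap, although the DDX10 call was lost without DMSO replicate 2 or DMSO replicate 3, with an adjusted p of up to 0.057. NPM1, NCL and DDX21 were not called. NPM1 was at 3393, 3448 and 3442 CPM in DMSO and 3245, 3356 and 3093 CPM in ML60218 (log2 fold change -0.09, standard error 0.0378, adjusted p = 0.102), and NCL at 1031, 1025 and 979 and 1023, 1022 and 959.6 CPM (log2 fold change -0.02, standard error 0.0375, adjusted p = 0.784). With the neighbouring transcripts the NCL log2 fold change was -0.09 (adjusted p = 0.0514).

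The ML60218 calls are given by subunit, with no test of the difference between the lists. Lower were 61.1% of the large and 23.5% of the small subunit factors, against 20.9% of all genes tested. Higher were 5.56% and 17.6%, against 18.1%. Of 18 large subunit factors 11 were lower and 1 higher, with a median log2 fold change of -0.14. Beside those named, with log2 fold changes in parentheses, PES1 (-0.17), EBNA1BP2 (-0.16), RRP1B (-0.15), GNL3 (-0.13) and RRP1 (-0.12) were lower. Of 17 small subunit factors 4 were lower (PNO1, BYSL, UTP18 and NOP14, from -0.20 to -0.10) and 3 higher, with a median of -0.01. With total counts these were 7 lower and 2 higher for the large subunit, and none lower and 6 higher for the small subunit. NOP56 was the only C/D protein called, at -0.17.

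The effects of siPOLR3A and ML60218 were compared directly in a fit of all 12 libraries. The difference, siPOLR3A effect minus ML60218 effect, was called for 26 of the 46 genes (56.5%), 19 with a positive and 7 with a negative value, and 27 had an unadjusted p under 0.05. Over all 15780 genes tested 50.9% were called, 24.5% positive and 26.4% negative. Among 7970 genes at least as highly expressed as the lowest assembly factor, 66.7% were called, 33.2% positive and 33.4% negative. A called difference of at least 2-fold was found in 3 assembly factors and in 6.24% of all genes. The median difference was 0.07 over the assembly factors and -0.02 over all genes. Of the called assembly factors 73.1% were positive as reported and 86.7% (26 and 4) after removal of the GC and length trend.

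GRWD1 differed most, with a log2 difference of 1.62 (standard error 0.0469, adjusted p = 1.48e-12), since it was higher after the siRNA and lower after ML60218. DDX10, with a difference of 1.07 (standard error 0.0517, adjusted p = 2.11e-10), rose in both experiments, far more after the siRNA. NIP7, with 1.00 (standard error 0.0959, adjusted p = 2.51e-06), moved in opposite directions, and DDX18, with 0.63 (standard error 0.0398, adjusted p = 3.82e-09), was called only after the siRNA. The most negative differences were those of GTPBP4 (log2 difference -0.49, standard error 0.0390, adjusted p = 4.86e-08), NAT10 (log2 difference -0.31, standard error 0.0473, adjusted p = 5.78e-05), RRP1 (log2 difference -0.22, standard error 0.0536, adjusted p = 0.00238) and PNO1 (log2 difference -0.22, standard error 0.0745, adjusted p = 0.0226). All 4 fell after the siRNA, and GTPBP4 and NAT10 were not called after ML60218 (-0.05 and -0.06). The PNO1 difference was lost in 5 alternatives (adjusted p up to 0.143), among them those without siControl replicate 3, siPOLR3A replicate 2 or DMSO replicate 3.

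RRS1 had a difference of 0.22 (standard error 0.0522, adjusted p = 0.00261), as it fell less after the siRNA than after ML60218, while that of RPF2 was not called (log2 difference 0.10, standard error 0.0520, adjusted p = 0.108). NCL (log2 difference 0.21, standard error 0.0436, adjusted p = 8.02e-04) and DKC1 (log2 difference 0.23, standard error 0.0465, adjusted p = 5.86e-04) had positive differences, and that of NPM1 was not called (log2 difference -0.05, standard error 0.0443, adjusted p = 0.342). All 5 genes in the H/ACA list were called, as were 50.9% of all genes tested. Values were positive for the core genes NOP10 (0.45), GAR1 (0.40), NHP2 (0.38) and DKC1 and negative for the chaperone NOLC1 (-0.20). In the large subunit pathway 10 of 18 were positive and 3 negative, and in the small subunit pathway 2 of 17 were positive and 2 negative, although 7 and 1 after removal of the GC and length trend.

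Both comparisons called 17 of the 46 genes (37.0%), as they did 26.2% of the 15165 genes tested in both. In the same direction went 10 of them: DDX10, NOB1, RRP12 and NVL were higher in both, and UTP18, PNO1, RPF2, RRS1, RRP1 and GNL3 lower in both. The other 7 (NOP56, NHP2, GAR1, PES1, NIP7, EBNA1BP2 and GRWD1) were higher after the siRNA and lower after ML60218, and no gene had the reverse pattern. Of the 46 genes these 7 were called in opposite directions, as were 2111 (13.9%) of the 15165 genes tested in both. The 13.9% holds both orders, and the share of each order alone was not computed over all genes. The lack of the reverse pattern thus has no background to be read against. RRP9, UTP14A, UTP15, LTV1, TSR1 and WDR12 were called in neither, but with the neighbouring transcripts WDR12 was lower in both, with a log2 fold change of -0.10 after ML60218 (adjusted p = 0.0289).

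Other ribosome assembly genes were taken from lists drawn up by function. Of 101 such genes 94 were tested, and 36 were higher and 30 lower after the siRNA, 9 higher and 31 lower after ML60218. After the siRNA 70.2% of the 94 were called, against 56.6% of all genes tested and 71.4% of the well-expressed background genes. After ML60218 33.0% of the 94 were lower, against 20.9% of all genes tested and 34% of the well-expressed ones. Both shares were thus close to those of well-expressed genes, although not all of the 94 reached that level of expression. Among 39 other small subunit factors 17 were higher and 11 lower after the siRNA, but 2 higher and 21 lower after ML60218, with a median of -0.14 in the latter. IMP3, a protein of the U3 particle, had a log2 fold change of -0.53 after ML60218 (adjusted p = 1.76e-04), and the processome proteins ESF1 (-0.66), the GTPase BMS1 (-0.61) and WDR3 (-0.60) were lower on the same scale after the siRNA. TRMT112, the partner of rRNA methyltransferases, was higher after the siRNA (log2 fold change 0.66, standard error 0.0331, adjusted p = 7.87e-10) and lower after ML60218 (log2 fold change -0.45, standard error 0.0675, adjusted p = 0.00131).

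Of 41 other large subunit factors 16 were higher and 12 lower after the siRNA, and 6 were higher and 6 lower after ML60218. After the siRNA these were 39.0% higher and 29.3% lower, against 27.4% and 29.2% of all genes tested. After ML60218 the shares in this list were 14.6% each, against 18.1% higher and 20.9% lower. The list also held NAF1 and SHQ1, which are assembly factors of H/ACA particles. After the siRNA, NAF1 counted among the lower genes (log2 fold change -0.29) and SHQ1 among the higher ones (0.15). NMD3, the export adaptor of the large subunit, was lower after the siRNA (log2 fold change -0.86, standard error 0.0324, adjusted p = 4.15e-11) and higher after ML60218 (log2 fold change 0.19, standard error 0.0468, adjusted p = 0.0101), and RSL24D1, an early placeholder on the large subunit, was higher after the siRNA (log2 fold change 0.87). The balance of these lists depended on the processing. The other small subunit factors were 22 higher and 11 lower after the siRNA under upper quartile scaling or total counts. After ML60218 they were 3 higher and 13 lower for total counts (median -0.07) and 1 and 14 with the offset for isoform length (median -0.09). The other large subunit factors were 22 higher and 11 lower after the siRNA under upper quartile scaling. After ML60218 they were 10 higher and 5 lower for total counts, 5 and 9 with the offset, and 6 and 9 after removal of the GC and length trend. Among 14 exosome genes, whose products trim rRNA precursors, 3 were higher and 7 lower after the siRNA, and 1 higher and 4 lower after ML60218. Their shares were 21.4% higher and 50% lower after the siRNA, and 7.14% and 28.6% after ML60218. The cofactor C1D was higher after the siRNA (log2 fold change 0.95) and lower after ML60218 (-0.34).

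The calls of the assembly factors with and without the E-box are given side by side. Of the 20 genes with CACGTG in the window, 7 were higher and 6 lower after the siRNA, against 9 higher and 5 lower of the 19 without. After ML60218, 10 of the 20 were lower and none higher, and of the 19 without, 7 were lower and 3 higher. The median ML60218 log2 fold changes were -0.08 with and -0.05 without. With total counts, 4 of the 20 were lower and 3 higher, against 6 lower and 4 higher of the 19. Of all genes tested, 27.4% were higher and 29.2% lower after the siRNA, and 18.1% and 20.9% after ML60218. Calls were not counted over all genes with CACGTG. The difference between these sets was not tested. No copy was found in the windows of GRWD1, DDX10, NIP7, GTPBP4, NPM1 or NCL.

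Of the 46 genes 7 hold annotated snoRNA genes within their bounds on the same strand: NOP56, NOP58, DKC1, WDR43, TSR1, GNL3 and NCL. These were 25 entries in all, some of them with only an RNA family number as a name. Whether they lie in introns was not checked. Of these hosts 4 were higher and 1 lower after the siRNA and 3 were lower after ML60218, against 15 higher and 13 lower, and 4 higher and 17 lower, of the 39 others. After ML60218 42.9% of the hosts and 43.6% of the others were lower, against 20.9% of all genes tested. After the siRNA 57.1% and 38.5% were higher, against 27.4% of all genes tested. In the same comparison 14.3% and 33.3% were lower, against 29.2%. The snoRNAs themselves were not analysed here. The share of matched reads in the leading transcript moved by a few points in some genes. The libraries of the groups did not overlap for 17 genes after the siRNA, 6 with a higher and 11 with a lower share, and for 15 after ML60218, 3 with a higher and 12 with a lower share. After the siRNA the share went from 84.3% ± 2.02 to 78.8% ± 3.36 in RRP12 and from 61.5% ± 0.899 to 57.3% ± 0.842 in NOP16. It went from 91.7% ± 0.960 to 96.5% ± 0.106 (SD, n = 3) in DDX18 and from 69.0% ± 2.28 to 74.3% ± 0.619 in WDR75. After ML60218 it went from 29.5% ± 0.501 to 35.3% ± 4.56 in NOP56 and from 88.7% ± 1.22 to 84.1% ± 0.953 in DKC1. No test was made of these shares. They were not computed for other genes, so whether 17 and 15 are many for genes in general is not known.

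**Figure D4:**
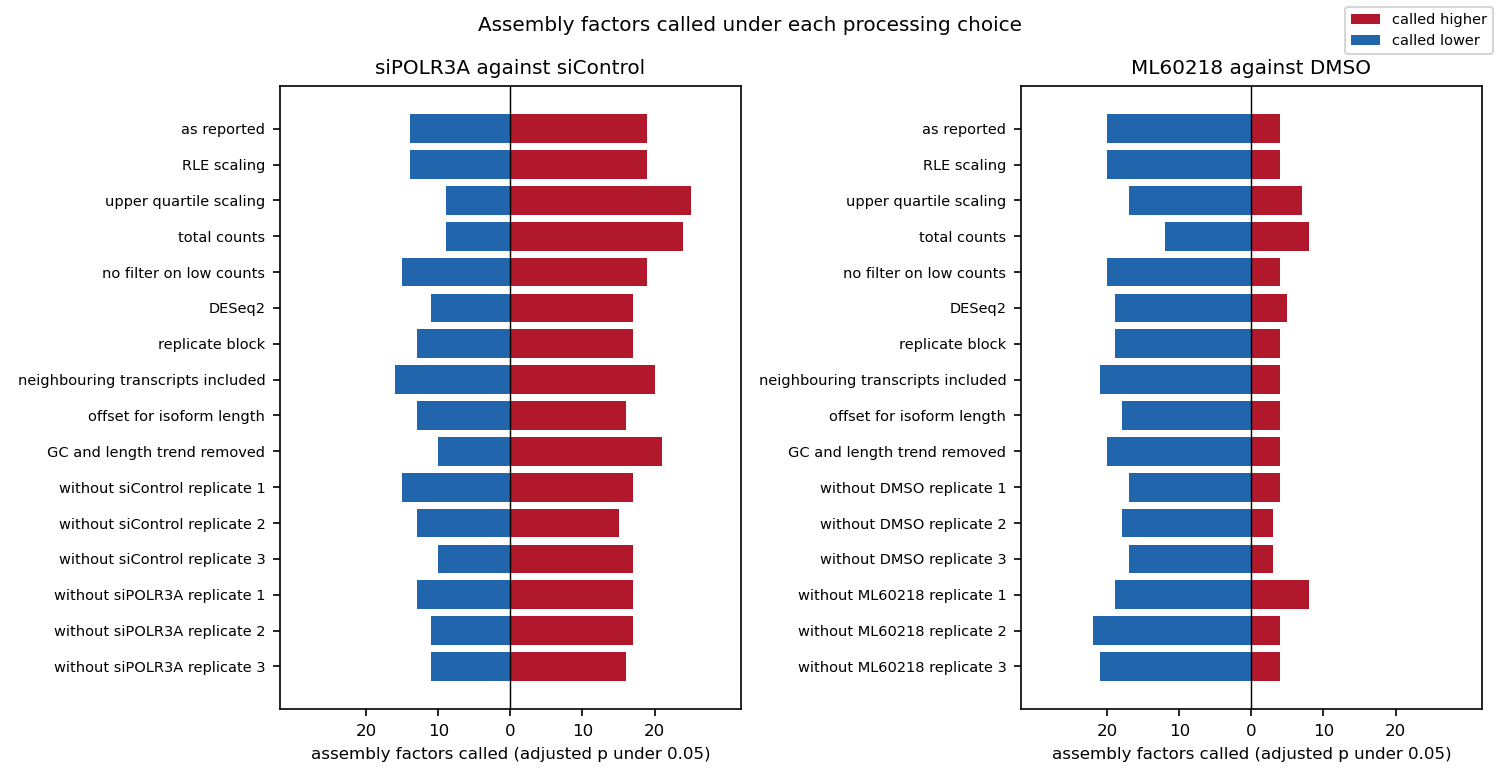
Number of the 46 assembly factors called higher (red, to the right) and lower (blue, to the left) under each processing choice, for the siRNA (left) and ML60218 (right) comparisons. The siRNA split is 19 higher and 14 lower as reported, 25 and 9 with upper quartile scaling and 17 and 15 without siControl replicate 1, and in ML60218 lower calls outnumber higher ones in every row.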

How the data were processed

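Messenger RNA of HEK293T cells was profiled in 12 libraries, 4 groups of 3, prepared with a stranded mRNA kit per the labels' protocols. The deposited table gave, per the file headers, an estimated count and a TPM value for each transcript and library, in columns of the kind salmon writes. The submitters' processing notes name Trim Galore, bcl2fastq 2.20, DESeq2 and the build hg38, and the transcript release and counting settings are not given in the sources used here.

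Transcripts were assigned to genes by identifier without version in GENCODE release 29, which matched 158359 of 194142 (81.6%) and between 91.0% and 91.6% of the reads. The design had assumed counts per gene, so estimated counts were added up over the transcripts of a gene and then rounded. Depth was 37008325 to 49479476 estimated reads per library. The comparisons had a fit each on their 6 libraries, and the difference between the effects had 1 on all 12, with edgeR 4.0.16 in R 4.3.3: filterByExpr (minimum count 10, minimum total 15), trimmed mean of M values (TMM) scaling, and the two-sided robust quasi-likelihood test. Adjusted p-values are Benjamini-Hochberg over all genes tested, and a gene was called under 0.05. An exact permutation test of 3 against 3 libraries cannot go below 0.1. CPM used the TMM factors of each experiment, or of all 12 libraries where controls are set side by side. Levels between genes were compared in the deposited TPM only. The script was tested on simulated counts.

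The genes and lists were chosen with earlier results of these data known. All 48 genes may be named. Values per library are given for up to 6 of the largest rises and falls called in a comparison, for the 4 largest differences of each sign, and always for GRWD1, NCL, NPM1, DKC1, RPF2 and RRS1. Alternatives were other scalings (relative log expression, upper quartile, total counts), no filter, DESeq2 1.42.0, a replicate block, neighbouring unmatched transcripts, an offset for isoform length, removal of a GC and length trend, and leaving out each library. The levels of the control groups, the background of well-expressed genes and the counts by role under each setting were added after the data were seen. Promoter windows came from RefSeq and 3′ UTRs from GENCODE 29.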

Additional observations from a re-analysis of the deposited data

Results flagged for a closer look

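The effects of siPOLR3A and ML60218 differed for 11 of the assembly factors whose difference is given with full values above. The test was that of the difference itself in all 12 libraries. The values are log2 differences, the siPOLR3A effect minus the ML60218 effect. They were positive for GRWD1 (1.62), DDX10 (1.07), NIP7 (1.00), DDX18 (0.63), DKC1 (0.23), RRS1 (0.22) and NCL (0.21). They were negative for GTPBP4 (-0.49), NAT10 (-0.31), RRP1 (-0.22) and PNO1 (-0.22). GRWD1, DDX10, NIP7, DDX18, GTPBP4, NAT10, RRP1 and PNO1 were named for the size of this difference. The list is not complete. NOP10 (0.45), EBNA1BP2 (0.44), NOP2 (0.43), NOP16 (0.39), MRTO4 (0.19) and NOLC1 (-0.20), given with full values for a single comparison, were also called. In all, 26 of the 46 assembly factors (56.5%) were called, and among all genes tested 50.9% had such a difference.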

How the results depend on the processing

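The count of assembly factors called lower after siPOLR3A was 14 as reported and 9 with upper quartile scaling or total counts. After ML60218 the count called higher was 4 as reported, 7 under upper quartile scaling, 8 for total counts and 3 to 8 when a library was left out, the highest without ML60218 replicate 1. The count called lower after ML60218 was 20 as reported and 12 with total counts. In the difference between the effects the negative calls were 7 as reported and 4 after removal of the GC and length trend. In the 250 bases before the start alone, 20.5% of the assembly factors held CACGTG, against 51.3% in the whole window.

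No sign of pairing by replicate number was seen: deviations of same-numbered libraries correlated at -0.0241, 0.038 and -0.0741 in the siRNA experiment and at 0.0165, 0.0656 and -0.0544 in the ML60218 experiment. These values were taken over all genes that passed the filter, so noise of low counts could hide a pairing. The labels do not say whether libraries were handled in pairs. With the replicate number as a block, 30 assembly factors were called after siPOLR3A, 23 after ML60218 and 26 in the difference, against 33, 24 and 26 without it. Of 636 values tried for 22 named genes, 620 kept their direction and call, 16 lost the call and 0 reversed. Those 16 belong to RPF2 in each comparison, DDX10 after ML60218 and PNO1 in the difference. Only results called in the main fit were tried, for genes named mostly for large changes, so these counts do not describe the calls in general. Over all assembly factors the number called after siPOLR3A was 27 to 36 across the alternatives, lowest without siControl replicate 3 or siPOLR3A replicate 3. It was 20 to 27 after ML60218 and 23 to 30 in the difference. At the depth of these libraries the median standard error of an assembly factor was 0.0307 on the log2 scale in the siRNA fit and 0.0373 in the ML60218 fit.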

Other observations

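Levels against DMSO are given for genes with and without the pair of 3′ UTR strings. On the scale of all 12 libraries, the median log2 difference of siControl from DMSO was -0.15 over 559 genes with GACGTA in the 3′ UTR, GRWD1, DDX10 and RRS1 among them, and 0.01 over 13834 genes without it. The same medians for siPOLR3A against DMSO were 0.01 and -0.0002. For GAGGGA, the medians of siControl against DMSO were 0.03 over 4983 genes with it and -0.01 over 9410 without, and those of siPOLR3A against DMSO were -0.04 and 0.02. Over the 46 assembly factors the medians were -0.30 in siControl and -0.23 in siPOLR3A. The strings were chosen because they went with changes of siPOLR3A against these same siControl libraries, so the siControl values are in part fixed by that choice and support nothing by themselves. The sets also share their DMSO libraries, and no test was made.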
